A study of Arabidopsis thaliana with 35 samples.

Results

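The genes around the centromere of Arabidopsis thaliana chromosome 1 were followed in mature pollen of 7 genotypes. They were chosen by locus identifier and by level, as the features from AT1G35000 to AT1G44999 (suffixes such as _v2 included) with at least 10 counts in at least 5 of the 35 libraries. Of 549 listed features in that range, 79 met the rule, against 12548 features in the whole series and 2686 other genes of chromosome 1. The RefSeq annotation of TAIR10.1 classes 62 of the 79 as protein-coding, 16 as pseudogenes and 1 as a noncoding RNA gene. The rule read all 35 libraries together, so a gene silent in wild-type could enter through the mutants alone. In 57 members all 5 wild-type libraries held 10 counts, whereas in 10 members, 6 pseudogenes and 4 protein-coding genes, no wild-type library did. Counts of members that changed are therefore descriptions, and they are also given for the 57 members that met the rule through wild-type alone.

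All plants were of the Col0 ecotype, and every genotype was sampled with 5 libraries: the labels place 2 of them in batch 1 and 3 in batch 2. The mutants were mbd5 mbd6, which lacks a pair of methyl-CpG-binding domain proteins, sln, which lacks the J-domain protein SLN (SILENZIO), acd15 (labelled acd15.5), acd21 (labelled acd21.4), acd15 acd21 and acd15 acd21 sln. ACD15 and ACD21 are alpha-crystallin domain proteins, a fold shared with small heat shock proteins. Wild-type pollen was the control for all 6 mutants, so the 6 comparisons with it share its 5 libraries. Polyadenylated RNA of whole pollen was sequenced after strand-marking library preparation. The labels name no mbd5, mbd6 or sln allele, and nothing in them says that replicates were grown apart; the p-values therefore rest on the spread of these libraries, which may be technical. Pollen was sequenced in bulk, and fewer cells of a type cannot be told apart from less RNA per cell.

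The sequence around a plant centromere is rich in transposable elements, truncated element genes and other pseudogenes, packed as heterochromatin whose cytosines are methylated in the CG context. MBD5 and MBD6 bind methylated CG sites, and SLN and the ACD proteins are known as partners of these readers in gene silencing without loss of the methylation. In pollen, the sperm cells lie inside a vegetative cell, whose nucleus loosens its centromeric heterochromatin. Ordinary genes are interspersed with the repeats, and the question here was which genes of this region were higher or lower when a reader or a partner was missing.

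Libraries held 9267958 to 22208090 counts assigned to features (median 13847738), and levels are given as counts divided by the library's total, scaled to CPM. MBD6 had 0 to 2 counts per library in mbd5 mbd6 and 8 to 16 in wild-type. SLN had 0 to 9 counts in sln and 3 in each acd15 acd21 sln library, against 54 to 67 in wild-type. MBD5, ACD15 and ACD21 had too few counts to check their labels. The pollen label fits its markers, with summed vegetative cell markers (ANX1, ANX2 and VGD1) at 10517 to 13973 CPM and sperm cell markers at 429.8 to 553 CPM. Tapetum markers (A9 and ATA7) were at 0 in every library, and summed leaf markers (RBCS1A, LHCB1.3, RCA and LHCB2.1) lay between 2.65 and 22.3 CPM.

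Most features of the region had no counts in any genotype. How reads with several matches were counted is not given, so 0 counts in a copied feature need not mean silence. Of the 549 features, 330 had 0 counts in all 35 libraries, among them 234 of 285 pseudogenes and 93 of 257 protein-coding genes, and 455 reached 10 counts in no library. The member closest to the threshold was AT1G42480, with 10 counts in exactly 5 libraries, and the nearest features outside it were AT1G36627 and AT1G44575 (NPQ4, a photosystem II subunit), with 10 counts in 3. The 79 members run from position 12833398 to 17001734 of chromosome 1 (TAIR10.1), and 36 lie left and 43 right of an interval of 1.43 Mb without members, between 14282034 and 15716714. The 5 longest runs of unresolved bases on chromosome 1, of 1000 to 53000 bases each, lie in that interval, and shorter runs were not counted. Reads of all members together made up 0.578% to 0.618% of a library.

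The pseudogene members together took a larger share of the counts in the mutants. The share of all counts that came from the 16 pseudogene members was 0.0146 ± 0.00168% in acd15 acd21 sln and 0.0158 ± 0.00199% in acd15 acd21. It was 0.0161 ± 0.00122% in acd15, 0.0110 ± 0.000447% in acd21, 0.0112 ± 0.00173% in sln and 0.0136 ± 0.00161% in mbd5 mbd6, against 0.00616 ± 0.000357% in wild-type (SD, n = 5 each). Of the 16, 6 entered through mutant libraries alone, so this share is a description. Over the 10 that met the rule through wild-type alone it was 0.0133 ± 0.00150% in acd15 acd21 sln, 0.0137 ± 0.00176% in acd15 acd21, 0.0139 ± 0.00113% in acd15, 0.00942 ± 0.000289% in acd21, 0.0103 ± 0.00161% in sln and 0.0126 ± 0.00148% in mbd5 mbd6, against 0.00608 ± 0.000373% in wild-type (SD, n = 5 each). For these 10 the lowest library of each mutant lay above the highest wild-type library. A summed share weighs the most abundant members most, with AT1G35115, AT1G35790 and AT1G42420_v2 among them in the mutants. Not every pseudogene rose, and AT1G43590 was called lower in 4 mutants. At the level of CPM per kilobase of annotated exon, the median pseudogene member was at 1.54 in mbd5 mbd6, 2.47 in acd15 and 0.679 in wild-type, and the median protein-coding member at 3.68, 4.84 and 3.77. The classes are not on a like footing here. The annotated exon of a pseudogene can be its whole span, as in AT1G43590 and AT1G35960, and 6 of the 16 entered through mutant libraries alone.

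Of the 79 members, 77 entered the test (edgeR's quasi-likelihood test over all 35 libraries with batch as a term, Benjamini-Hochberg adjustment over 12106 features, called under an adjusted p of 0.05). In acd15 acd21 sln, 11 members were higher and 4 lower than in wild-type, beside 3.82% higher, 2.36% lower and 6.19% called in either direction among all tested features. In acd15 acd21, 14 were higher and 2 lower, beside 3.70% higher, 1.18% lower and 4.88% called in either direction among all tested features. For acd15 the counts were 12 and 2, beside 3.46% higher, 0.9995% lower and 4.46% called in either direction among all tested features, and for acd21 they were 12 and 2, beside 3.35% higher, 1.32% lower and 4.67% called in either direction among all tested features. In sln, 13 were higher and 2 lower, beside 4.25% higher, 1.40% lower and 5.65% called in either direction among all tested features. In mbd5 mbd6, 12 were higher and 2 lower, beside 4.09% higher, 1.44% lower and 5.53% called in either direction among all tested features. As a share, the higher members came to 15.6% of the 77 in mbd5 mbd6 and 18.2% in acd15 acd21. Among the 57 members that met the rule through wild-type alone, 5 were higher in acd15 acd21 sln, 7 in acd15 acd21, 6 in acd15, 5 in acd21, 6 in sln and 6 in mbd5 mbd6, which is 8.77% to 12.3%. Of all tested features under the same condition, 2.08% (acd15) to 3.02% (mbd5 mbd6) were higher. With only the 2 genotypes compared in the fit, 7 members were higher in acd15 acd21 sln (beside 2.67% of all features tested in that fit), 9 in acd15 acd21 (3.05%) and 7 in mbd5 mbd6 (3.76%). In batch 1 alone 6 were higher in sln (beside 1.67%) and 7 in mbd5 mbd6 (beside 239 of 11955 features). The share of all features called lower was 4.16% in acd15 acd21 sln without its replicate 1 and 0.712% in sln without its replicate 5. Counts of lower members were small: no member was called lower in mbd5 mbd6, acd21 or acd15 acd21 in batch 1 alone. The 2 lower members of acd15 became 1 without acd15 replicate 1, 2 or 3 or wild-type replicate 1, 2 or 4. Those of acd15 acd21 became 0 without wild-type replicate 4, 1 without acd15 acd21 replicate 3 or 4 or wild-type replicate 5, and 4 without acd15 acd21 replicate 5.

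The higher members were mostly pseudogenes. Of the 15 pseudogene members tested, 9 in acd15 acd21 sln, 10 in acd15 acd21, 9 in acd15, 8 in acd21, 9 in sln and 9 in mbd5 mbd6 were higher. The same counts for the 61 protein-coding members were 2 in acd15 acd21 sln, 4 in acd15 acd21, 3 in acd15, 4 in acd21, 4 in sln and 3 in mbd5 mbd6, which is 3.28% (acd15 acd21 sln) to 6.56% (acd15 acd21, acd21 and sln), beside 1.22% (acd15) to 2.39% (sln) of all tested protein-coding features. Among the 46 protein-coding members that met the rule through wild-type alone, 1 was higher in each mutant but acd15 acd21 sln, which had 0. That is 2.17% and 0.00%, beside 1.05% (acd15) to 2.23% (sln) of all tested protein-coding features under the same condition. Of 20 tested pseudogenes elsewhere on chromosome 1, 3 in acd15 acd21 sln, 4 in acd15 acd21, 4 in acd15, 4 in acd21, 4 in sln and 2 in mbd5 mbd6 were higher, and of all 155 tested pseudogenes, members included, 31.0% (mbd5 mbd6) to 37.4% (acd15 acd21). Over the tested members the median log2 change was 0.02 in mbd5 mbd6 and 0.06 in acd15 acd21, and over all tested features 0.00 in both. Over the 15 tested pseudogene members it was 1.26 in acd15 acd21 sln, 1.18 in acd15 acd21, 1.49 in acd15, 0.94 in acd21, 0.76 in sln and 1.47 in mbd5 mbd6, beside 0.13 (acd21) to 0.17 (acd15) over all tested pseudogenes. Over the 10 that met the rule through wild-type alone it was 0.43 in acd15 acd21 sln, 0.91 in acd15 acd21, 0.55 in acd15, 0.25 in acd21, 0.42 in sln and 0.36 in mbd5 mbd6, beside 0.02 (mbd5 mbd6) to 0.06 (acd21) over all tested pseudogenes under the same condition. In all, 9 members were higher in all 6 mutants, beside 2.16% of all tested features, 17 in at least 1, beside 7.38%, and 5 were lower in at least 1, beside 5.02%. As shares of the 77 tested members these are 11.7%, 22.1% and 6.49%. The 9 were the pseudogenes AT1G35790, AT1G36090, AT1G36360, AT1G37999, AT1G42385, AT1G42420_v2, AT1G43205 and AT1G43270 and the protein-coding gene AT1G42080. Of these 9, 4 met the rule through wild-type alone (AT1G35790, AT1G37999, AT1G42420_v2 and AT1G43205), which is 7.02% of the 57, beside 1.07% of all tested features under the same condition. Among the 10 pseudogenes that met the rule in that way, 4 (acd21) to 6 (acd15 acd21) were higher, beside 20.4% and 24.3% of all tested pseudogenes under the same condition. The 9 lay on both sides of the interval without members, 4 left and 5 right.

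**Figure D1:**
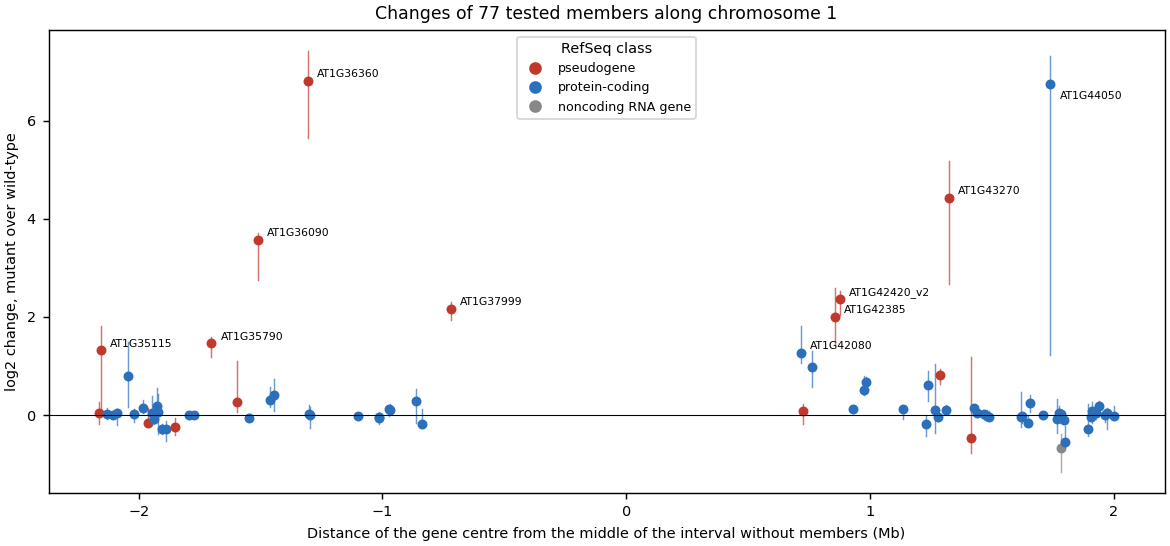
Position of the 77 tested members on chromosome 1, in Mb from the middle of the interval without members, against their log2 change, mutant over wild-type; points are the median over the 6 mutants and lines run from the lowest to the highest, coloured by RefSeq class. The members with large increases lie on both sides among genes near 0, and the value of AT1G44050, which has no wild-type count, is a fitted value and not a bound.

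**Figure D2:**
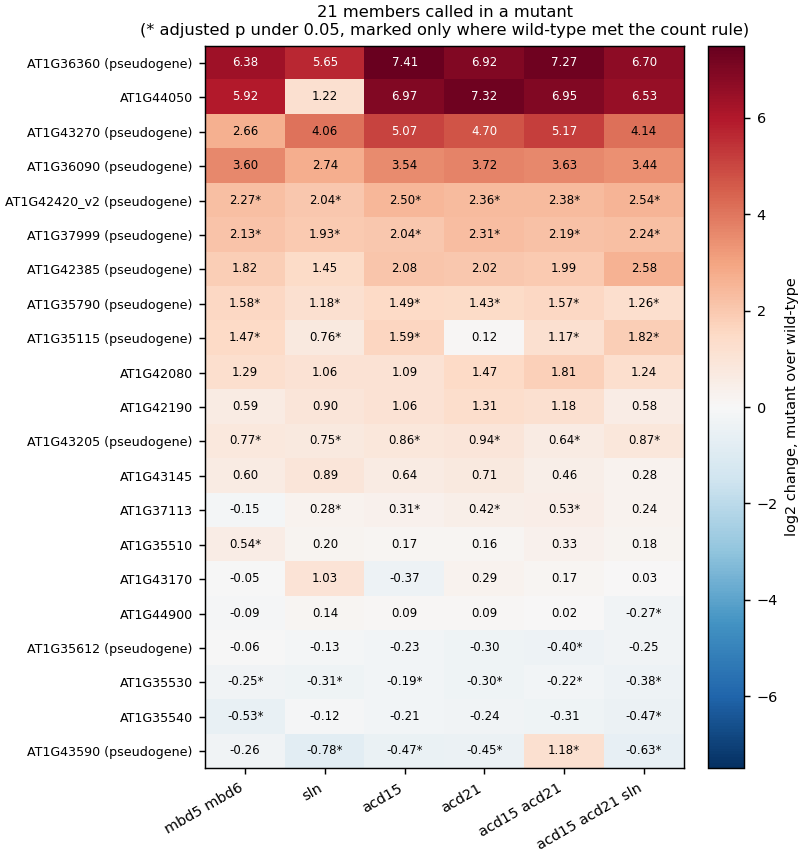
Fitted log2 change, mutant over wild-type, of the 21 members called in at least 1 comparison with wild-type (columns: mutants; asterisk: adjusted p under 0.05, marked only for members with 10 counts in all 5 wild-type libraries). AT1G36360 lies between 5.65 and 7.41 in all 6 mutants, and AT1G43590 is the member called higher in 1 mutant and lower in 4 others.

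AT1G36360 (chr1:13689534-13695235, plus strand of TAIR10.1) changed most of the members with wild-type counts, and its neighbour did not pass the test. The pseudogene had 5.82, 9.48, 9.85, 6.88 and 9.40 CPM in acd15 acd21 sln and 10.04, 11.5, 12.9, 12.6 and 18.3 CPM in acd15 acd21. It had 13.2, 15, 15.3, 16.1 and 14.1 CPM in acd15, 11.01, 11.3, 8.42, 9.56 and 7.98 in acd21, with 3.54, 3.69, 4.33, 4.69 and 5.99 in sln. Its values were 4.70, 7.13, 6.91, 6.74 and 8.89 CPM in mbd5 mbd6 and 0, 0.238, 0, 0.133 and 0 CPM in wild-type, where 5 counts were seen in all. Every mutant library was above the highest wild-type library. Fitted log2 changes were 6.70 in acd15 acd21 sln, 7.27 in acd15 acd21, 7.41 in acd15, 6.92 in acd21, 5.65 in sln and 6.38 in mbd5 mbd6, with standard errors of 0.32 to 0.40; no p is given, since the gene met the rule through mutant libraries. In batch 1 alone they ran from 4.82 to 6.78 and in batch 2 alone from 6.33 to 7.99. SHM7 (AT1G36370, chr1:13696042-13698739, minus strand), a serine hydroxymethyltransferase of folate metabolism, ends 806 bases from the end of the pseudogene and points towards it. SHM7 had 19.2 ± 2.65 CPM in acd15 acd21 sln, 19.1 ± 2.29 in acd15 acd21, 19.7 ± 1.72 in acd15, 17.7 ± 2.19 in acd21, 22.6 ± 3.11 in sln and 18.6 ± 1.70 in mbd5 mbd6, against 18.3 ± 2.89 in wild-type (SD, n = 5 each). None of its 6 log2 changes, -0.01 to 0.20, passed the test, the largest being in sln (adjusted p = 0.242, edgeR), where it was called without wild-type replicate 3 (log2 0.30, adjusted p = 0.0478, edgeR).

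The starts of these genes show how many CG sites, the sites that MBD5 and MBD6 read when methylated, lie before them. The 250 bases upstream of the annotated start of 3 genes with large increases and of SHM7 are printed 5′ to 3′ on the gene's strand (TAIR10.1 sequence from RefSeq), with each CG in capitals. The annotated start of a pseudogene is the edge of a partial gene model, not a measured transcription start.
AT1G36360 (upstream, chr1:13689284-13689533, plus strand): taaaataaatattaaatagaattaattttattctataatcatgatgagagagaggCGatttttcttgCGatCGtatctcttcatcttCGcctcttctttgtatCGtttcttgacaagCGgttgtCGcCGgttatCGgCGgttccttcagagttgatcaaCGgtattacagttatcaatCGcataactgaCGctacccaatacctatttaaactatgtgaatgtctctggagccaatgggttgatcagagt
AT1G43270 (upstream, chr1:16319701-16319950, plus strand): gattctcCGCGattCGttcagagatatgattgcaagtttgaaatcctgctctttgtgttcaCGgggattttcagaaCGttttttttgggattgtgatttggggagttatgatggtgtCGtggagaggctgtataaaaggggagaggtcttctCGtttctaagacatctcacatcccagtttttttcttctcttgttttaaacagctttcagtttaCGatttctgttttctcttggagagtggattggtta
AT1G44050 (upstream, chr1:16738942-16739191, plus strand): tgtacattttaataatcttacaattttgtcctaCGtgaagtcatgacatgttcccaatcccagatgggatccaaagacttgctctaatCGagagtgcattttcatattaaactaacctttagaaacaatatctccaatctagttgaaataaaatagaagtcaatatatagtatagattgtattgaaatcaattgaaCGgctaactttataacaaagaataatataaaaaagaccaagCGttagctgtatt
SHM7, AT1G36370 (upstream, chr1:13698740-13698989, minus strand): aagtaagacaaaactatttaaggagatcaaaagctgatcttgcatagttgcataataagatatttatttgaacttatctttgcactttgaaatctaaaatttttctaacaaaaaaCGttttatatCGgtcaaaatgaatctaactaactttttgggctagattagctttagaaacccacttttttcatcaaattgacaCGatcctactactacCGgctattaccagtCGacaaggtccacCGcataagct
The windows held 13 CG sites before AT1G36360, 8 before AT1G43270, 4 before AT1G44050 and 6 before SHM7. CG reads the same on both strands. The median was 6.0 per window over the 16 pseudogene members and 4.5 over the 62 protein-coding members, beside 5.0 over all annotated pseudogenes and 5.0 over all annotated protein-coding genes. At least 1 CG was present in 93.8% and 90.3% of the members' windows and in 97.0% and 96.0% of the windows of all annotated genes of the same classes. Methylation was not measured in these libraries.

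AT1G43270 (chr1:16319951-16324362, plus strand), a pseudogene right of the interval, was higher in every mutant but to unequal levels. It had 2.84, 2.43, 2.53, 1.83 and 2.49 CPM in acd15 acd21 sln and 4.72, 5.03, 5.17, 5.25 and 5.95 CPM in acd15 acd21. It had 5.53, 4.72, 4.68, 4.89 and 5.22 CPM in acd15, 3.67, 4.85, 3.60, 3.45 and 2.37 in acd21, with 2.49, 3.16, 1.67, 2.38 and 2.93 in sln. Values were 0.530, 0.859, 0.864, 1.29 and 0.895 CPM in mbd5 mbd6 and 0.0730, 0.317, 0.241, 0.0664 and 0 CPM in wild-type. Means were highest in acd15 and acd15 acd21, with acd21 libraries next to them and overlapping, those of sln and acd15 acd21 sln lay in between, and those of mbd5 mbd6 were lowest of the mutants, though all lay above wild-type. Fitted log2 changes were 4.14 in acd15 acd21 sln, 5.17 in acd15 acd21, 5.07 in acd15, 4.70 in acd21, 4.06 in sln and 2.66 in mbd5 mbd6. Between mutants, the fitted log2 difference of acd15 acd21 over mbd5 mbd6 was 2.51 ± 0.19 (± standard error of the fit, for log2 values here and below). That of sln over mbd5 mbd6 was 1.39 ± 0.21, and that of acd15 acd21 sln over acd15 acd21 was -1.03 ± 0.16. The gene met the rule through mutant libraries, so these values are a description and no p is given. Matches at 90% identity or more to 2 other loci cover 65.9% of its span in all, so its reads may be shared with a copy.

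The 4 pseudogenes that met the rule through wild-type alone and were higher in all 6 mutants had levels that can be compared without the selection by count. AT1G42420_v2 had 16.6, 19.9, 23.9, 22.0 and 25.4 CPM in acd15 acd21 sln, 17.3, 18.1, 19.5, 24.2 and 23.3 in acd15 acd21 and 19.5, 21.6, 25.1, 25.7 and 21.5 in acd15. It had 21.1, 20.4, 17.5, 19.6 and 16.3 CPM in acd21, 15.8, 15.7, 15.04, 17.7 and 20.1 in sln and 16.1, 16.1, 19.0, 19.1 and 22.1 in mbd5 mbd6, against 3.65, 4.05, 3.38, 3.58 and 4.37 in wild-type. The lowest mutant library lay above the highest wild-type library, and the mutants overlapped each other. Its largest adjusted p among the 6 comparisons was 3.26e-21 (edgeR), with log2 changes of 2.04 to 2.54. The files list it apart from AT1G42420, to which RefSeq gives chr1:15873298-15878184, minus strand, so its own coordinates are uncertain.

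AT1G37999 (chr1:14278111-14282034, minus strand), the member nearest the interval on its left, had 3.49 to 6.45 CPM in acd15 acd21 sln, 3.38 to 6.70 in acd15 acd21, 3.56 to 5.15 in acd15, 3.33 to 6.04 in acd21, 2.49 to 5.63 in sln and 3.49 to 6.45 in mbd5 mbd6, against 1.17, 0.793, 0.966, 1.19 and 1.003 in wild-type. Its log2 changes stayed within 1.93 to 2.31 (largest adjusted p = 9.21e-12, edgeR), a narrower spread than that of AT1G43270. AT1G35790 (chr1:13295190-13300109, minus strand) was the most abundant of the 4, at 19.8 ± 5.74 CPM in acd15 acd21 sln, 26.1 ± 5.38 in acd15 acd21, 25.3 ± 4.04 in acd15, 22.5 ± 2.79 in acd21, 20.8 ± 5.47 in sln and 25.6 ± 5.05 in mbd5 mbd6, against 8.50 ± 1.77 in wild-type (SD, n = 5 each). No mutant library of AT1G35790 overlapped wild-type, and log2 changes were 1.18 to 1.58 (largest adjusted p = 5.13e-09, edgeR). The smallest increases were those of AT1G43205 (chr1:16285963-16286376, minus strand), with means of 3.298 CPM in acd15 acd21 sln, 2.94 in acd15 acd21, 3.49 in acd15, 3.44 in acd21, 3.32 in sln and 3.13 in mbd5 mbd6, against 1.83 in wild-type. Its log2 changes were 0.64 to 0.94 (largest adjusted p = 0.0179, edgeR); sln and acd15 acd21 libraries overlapped wild-type, and in batch 2 alone none of the 6 was called. Its call in acd15 acd21 ended without acd15 acd21 replicate 1 or 5 or wild-type replicate 1, 2 or 4 (adjusted p 0.0508 to 0.139, edgeR). AT1G43205 has 5 other loci that together cover its span, at up to 99.0% identity, and AT1G37999 has 26 other loci at 90% identity or more.

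**Figure D3:**
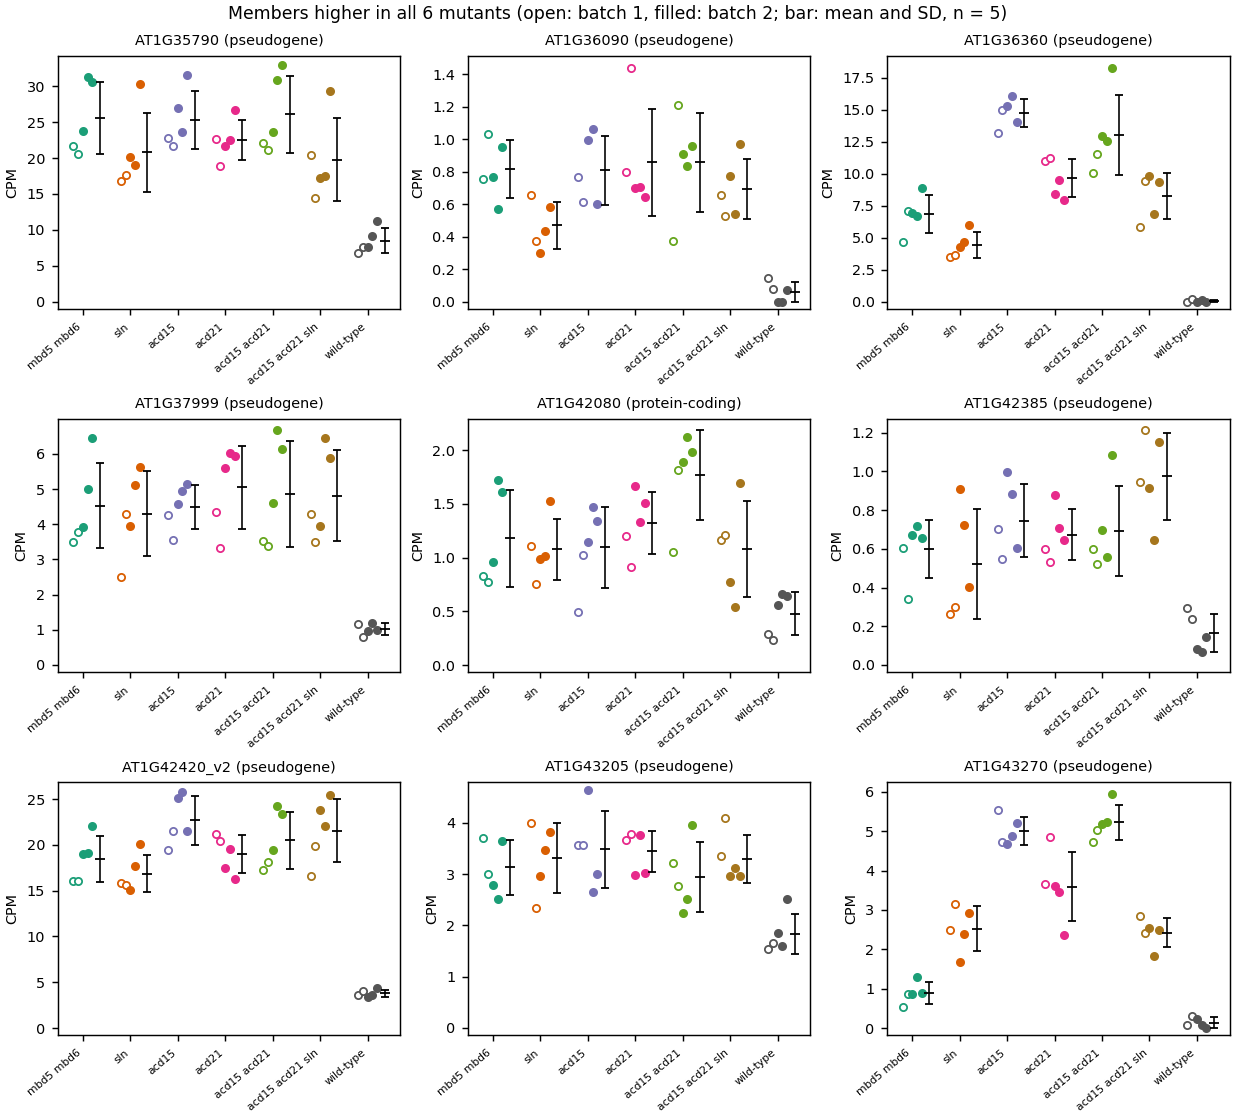
CPM of the 9 members called higher in all 6 mutants, by genotype; points are libraries (open for batch 1, filled for batch 2) and bars the mean and SD (n = 5). AT1G37999 and AT1G42420_v2 reach similar levels in all mutants, whereas AT1G36360 and AT1G43270 are highest in acd15 and acd15 acd21.

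Further members were close to the detection limit in wild-type. The pseudogene AT1G36090 (chr1:13487657-13489700, minus strand) had 0.531 to 0.971 CPM in acd15 acd21 sln, 0.375 to 1.21 in acd15 acd21, 0.602 to 1.06 in acd15, 0.647 to 1.44 in acd21, 0.304 to 0.655 in sln and 0.573 to 1.03 in mbd5 mbd6, against 0.146, 0.0794, 0, 0 and 0.0716 in wild-type, where it had 4 counts in all. Fitted log2 changes were 2.74 to 3.72, and 9 other loci match it at up to 99.2% identity. The pseudogene AT1G42385 (chr1:15855845-15856162, minus strand) had means of 0.974 CPM in acd15 acd21 sln, 0.693 in acd15 acd21, 0.746 in acd15, 0.672 in acd21, 0.520 in sln and 0.599 in mbd5 mbd6, against 0.164 in wild-type. Its log2 changes were 1.45 to 2.58, but in batch 1 alone they were 0.02 to 1.97, and 1 of the 6 calls, that in acd15 acd21 sln, was kept there. The call in sln was lost without sln replicate 3 or 4 or wild-type replicate 3, 4 or 5. Its sln libraries overlapped wild-type, and those of the other 5 mutants did not. AT1G42080 (chr1:15716714-15717169, minus strand), an uncharacterised short protein-coding gene and the member nearest the interval on its right, had 1.05, 1.82, 1.89, 2.12 and 1.98 CPM in acd15 acd21, against 0.292, 0.238, 0.564, 0.664 and 0.645 in wild-type. Libraries of acd15 and acd15 acd21 sln overlapped wild-type, and those of the other mutants did not. Its log2 changes were 1.06 to 1.81 over the 6 mutants, and 4 other loci together match its whole span at 90% identity or more. None of these 3 is given a p, since wild-type libraries had mostly under 10 counts and the genes met the rule through the mutants.

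The pseudogene AT1G35960 (chr1:13390829-13396127, minus strand) was 1 of the 2 members too low to be tested (AT1G42480 was the other), with 39 counts over the 5 acd15 acd21 sln libraries, 28 in acd15 acd21, 37 in acd15, 37 in acd21, 25 in sln and 12 in mbd5 mbd6, against 1 in wild-type. The gene entered through mutant libraries alone, and no fold or interval is given. AT1G42190 (chr1:15761082-15761276, plus strand), annotated as a GAG/POL/ENV polyprotein, the kind of product a retrotransposon encodes, had 0.734, 0.681, 1.23, 0.784 and 0.755 CPM in acd21 and 0.674, 0.780, 0.908, 0.949 and 0.704 in acd15 acd21, against 0.219, 0.317, 0.322, 0.398 and 0.430 in wild-type. Neither mutant overlapped wild-type, and log2 changes were 1.31 ± 0.34 and 1.18 ± 0.34. Its call in acd21 was lost without acd21 replicate 3, and its call in acd15 acd21 without acd15 acd21 replicate 3 or 4 or wild-type replicate 1, 3 or 4; since wild-type held under 10 counts in every library, no p is given. Its log2 changes in the other mutants were 0.59 in mbd5 mbd6, 0.90 in sln, 1.06 in acd15 and 0.58 in acd15 acd21 sln and were not called.

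Some members differed between mutants. AT1G44050 (chr1:16739192-16741652, plus strand) is a protein-coding gene of the cysteine/histidine-rich C1 domain family, a zinc-binding fold. It had 14, 4, 8, 5 and 21 counts in the acd15 acd21 sln libraries and 5, 12, 16, 24 and 25 in acd15 acd21. It had 9, 16, 24, 16 and 27 counts in acd15, 22, 14, 12, 17 and 15 in acd21, with 0, 0, 1, 0 and 0 in sln. There were 4, 4, 4, 7 and 16 counts in mbd5 mbd6 and 0 in all 5 wild-type libraries. The sln libraries were thus at or next to 0 like wild-type, and all libraries of the other 5 mutants lay above them. The wild-type group was set to 3 counts, taken as the 95% limit for 0 counts. Against it, the summed counts, scaled to library totals, were 11.98-fold in mbd5 mbd6, 25.7-fold in acd15 and 29.3-fold in acd21. They were 25.5-fold in acd15 acd21 and 17.6-fold in acd15 acd21 sln. These ratios leave out the spread between mutant libraries, so they are not lower bounds on the fold. The mean level of AT1G44050 was 0.739 ± 0.396 CPM in acd15 acd21 sln and 0.0152 ± 0.0340 CPM in sln (SD, n = 5 each). The gene met the rule through the mutants in which it is high, so these values are a description and no p is given. No other locus matched it over 200 bases at 90% identity.

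AT1G35115 (chr1:12842158-12845455, plus strand), a pseudogene at the left edge that met the rule through wild-type alone, was the member that separated acd15 from acd21. It had 52.3, 66.3, 67.3, 55.4 and 65.7 CPM in acd15 acd21 sln and 36.7, 39.3, 43.0, 51.6 and 36.9 CPM in acd15 acd21. It had 52.8, 54.8, 54.5, 67.4 and 53.7 CPM in acd15, 19.7, 21.1, 16.9, 18.8 and 18.2 in acd21, with 30.1, 28.8, 32.1, 34.9 and 37.3 in sln. The values were 52.6, 42.8, 47.7, 48.2 and 56.6 CPM in mbd5 mbd6 and 19.0, 18.0, 17.3, 17.7 and 17.3 CPM in wild-type. Libraries of acd21 overlapped wild-type (log2 0.12 ± 0.09, adjusted p = 0.669, edgeR), and those of all other mutants lay above it. The calls against wild-type were 1.82 ± 0.08 in acd15 acd21 sln, 1.17 ± 0.08 in acd15 acd21, 1.59 ± 0.08 in acd15, 0.76 ± 0.08 in sln and 1.47 ± 0.08 in mbd5 mbd6 on the log2 scale, the largest adjusted p being 6.85e-09 in sln (edgeR). Between acd15 and acd21 the difference was 1.47 ± 0.08 (adjusted p = 3.48e-16, edgeR), with no overlap of libraries. Matches to 2 other loci together cover 97.9% of its span. The start of AT1G35115 lies 1160 bases beyond the pseudogene AT1G35110, which was called in no mutant (log2 changes -0.18 to 0.27).

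AT1G43590 (chr1:16414121-16414627, plus strand), a short pseudogene with wild-type counts, was higher in acd15 acd21 and lower in 4 other mutants. The gene had 19.0, 21.4, 22.4, 27.6 and 21.5 CPM in acd15 acd21, against 7.30, 10.08, 10.5, 10.09 and 10.03 CPM in wild-type (log2 1.18 ± 0.09, adjusted p = 1.31e-14, edgeR). In acd15 it had 6.79, 5.68, 7.77, 8.01 and 8.16 CPM and in acd21 6.27, 6.89, 7.72, 7.52 and 5.72 CPM. In acd15 acd21 sln the values were 6.33, 4.32, 5.49, 6.56 and 7.52 CPM, in sln 5.89, 3.76, 6.30, 5.92 and 8.11 CPM and in mbd5 mbd6 7.58, 6.01, 7.20, 9.96 and 9.31 CPM. Every acd15 acd21 library lay above every library of the other 6 genotypes, and the libraries of the 5 other mutants overlapped wild-type. The decreases were -0.78 ± 0.10 in sln, -0.63 ± 0.11 in acd15 acd21 sln, -0.47 ± 0.10 in acd15 and -0.45 ± 0.11 in acd21 on the log2 scale (largest adjusted p = 0.00341, edgeR), and the change in mbd5 mbd6 was not called (log2 -0.26 ± 0.10, adjusted p = 0.158, edgeR). Adding sln to acd15 acd21 went with a lower level, 6.05 ± 1.21 CPM in acd15 acd21 sln and 22.4 ± 3.18 CPM in acd15 acd21 (log2 -1.81 ± 0.10, adjusted p = 7.89e-19, edgeR). The increase in acd15 acd21 was 1.21 in batch 1 alone and 1.17 in batch 2 alone. AT1G43590 has 4 other loci at 90% identity or more, together over 98.4% of its span, so the copy that gave these reads is uncertain.

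**Figure D4:**
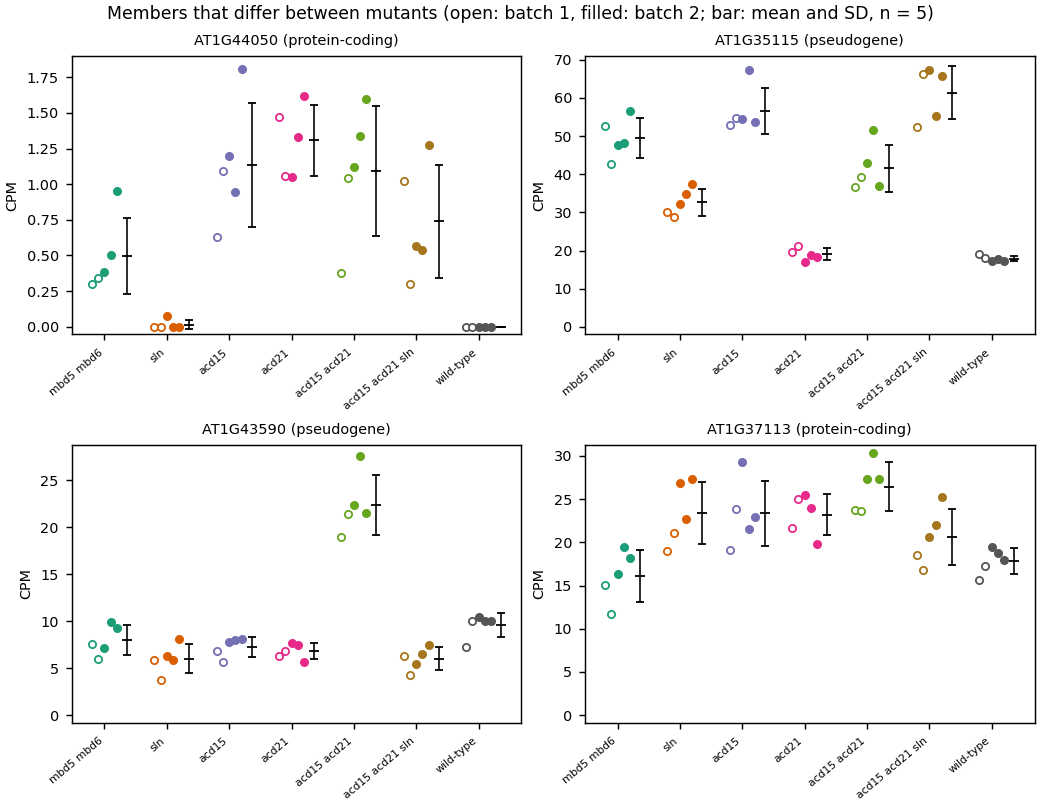
CPM of 4 members that differ between mutants, by genotype; points are libraries (open for batch 1, filled for batch 2) and bars the mean and SD (n = 5). AT1G44050 is near 0 in sln, AT1G35115 is at the wild-type level in acd21, and AT1G43590 is highest in acd15 acd21.

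Between mutants, 8 members were called in sln against mbd5 mbd6, beside 2.97% of all tested features, and 6 in acd15 acd21 against mbd5 mbd6 (1.58%). AT1G35115 was the only member called in acd15 against acd21 (0.240%). In acd15 acd21 sln, 5 members were called against acd15 acd21 (2.14%) and 8 against sln (4.25%). These comparisons share libraries with each other. Without acd15 acd21 sln replicate 1 the count against acd15 acd21 was 3, and without sln replicate 5 the count against sln was 5. The shares of all features moved too: in acd15 acd21 sln against sln 1.62% were called without sln replicate 5, 2.17%, 2.59% and 2.72% without acd15 acd21 sln replicate 4, acd15 acd21 sln replicate 2 and sln replicate 4, and 7.64% without acd15 acd21 sln replicate 1. In sln against mbd5 mbd6 the share was 1.63% and 1.83% without sln replicate 5 and 4, and 1.71% and 1.92% without mbd5 mbd6 replicate 3 and 4. AT1G36360 met the rule through mutant libraries, so its differences between mutants are a description and no p is given. Its level was 8.29 ± 1.81 CPM in acd15 acd21 sln, 13.1 ± 3.13 in acd15 acd21, 4.45 ± 0.982 in sln and 6.87 ± 1.49 in mbd5 mbd6 (SD, n = 5 each). On the log2 scale acd15 acd21 was 0.89 ± 0.15 and sln -0.73 ± 0.17 over mbd5 mbd6. In acd15 acd21 sln it was -0.57 ± 0.14 over acd15 acd21 and 1.05 ± 0.16 over sln. In order of its mean, AT1G36360 ran from 14.7 CPM in acd15 through 13.1 in acd15 acd21, 9.65 in acd21, 8.29 in acd15 acd21 sln and 6.87 in mbd5 mbd6 to 4.45 in sln, with the ranges of neighbours in that order overlapping. A test over all 7 genotypes called 19 members, beside 9.80% of all tested features.

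Protein-coding members changed less. AT1G37113 (chr1:14136413-14138703, plus strand), an uncharacterised gene, had 23.7, 23.6, 27.3, 30.4 and 27.3 CPM in acd15 acd21 and 21.7, 24.99, 25.5, 23.9 and 19.9 in acd21, against 15.7, 17.2, 19.5, 18.8 and 18.0 in wild-type. Both mutants lay above wild-type (log2 0.53 ± 0.08, adjusted p = 1.30e-06 in acd15 acd21 and log2 0.42 ± 0.08, adjusted p = 1.83e-04 in acd21, edgeR). Its increases in acd15 (log2 0.31 ± 0.08, adjusted p = 0.00709, edgeR) and sln (log2 0.28 ± 0.08, adjusted p = 0.0240, edgeR) overlapped wild-type, and the call was lost without acd15 replicate 3, sln replicate 2 or 3, or wild-type replicate 4 or 5 in sln. It was not called in mbd5 mbd6 (log2 -0.15 ± 0.08), and acd15 acd21 stood above mbd5 mbd6 (log2 0.68 ± 0.08, adjusted p = 2.56e-08, edgeR).

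The only member lower in all 6 mutants, beside 0.165% of all tested features, was FANCM (AT1G35530, chr1:13089816-13097286, plus strand), a DNA helicase that limits crossovers in meiosis. FANCM had 51.8, 52.6, 59.9, 51.1 and 61.5 CPM in acd15 acd21 sln, 60.4, 67.1, 57.2, 60.1 and 51.0 in acd21 and 58.9, 62.7, 59.1, 67.3 and 64.5 in mbd5 mbd6, against 76.1, 70.5, 69.1, 87.5 and 67.9 in wild-type. These 3 mutants lay below wild-type, and sln (57.9 to 75.02 CPM), acd15 (61.8 to 77.3 CPM) and acd15 acd21 (58.4 to 72.4 CPM) overlapped it in CPM. The overlap of sln came from its replicate 5, whose TMM factor in the fit, 1.25, is not part of CPM. The decreases were small, -0.38 in acd15 acd21 sln, -0.22 in acd15 acd21, -0.19 in acd15, -0.30 in acd21, -0.31 in sln and -0.25 in mbd5 mbd6 on the log2 scale (largest adjusted p = 0.0386 in acd15, edgeR). In acd15 the call was lost without acd15 replicate 1, 2 or 3 or wild-type replicate 1, 2 or 4 (adjusted p 0.0595 to 0.217, edgeR), and in acd15 acd21 without wild-type replicate 4 (adjusted p = 0.0748, edgeR). ARF14 (AT1G35540, chr1:13108634-13111700, plus strand), an auxin response factor, was lower in mbd5 mbd6 at 8.04 ± 1.99 CPM and in acd15 acd21 sln at 8.22 ± 1.58 CPM, against 11.7 ± 2.1 CPM in wild-type (log2 -0.53 ± 0.10, adjusted p = 1.52e-04 and log2 -0.47 ± 0.10, adjusted p = 0.00106, edgeR), though libraries of both overlapped wild-type. ARF14 has 6 other loci at 90% identity or more, together covering its span, and overlaps AT1G35545 on the other strand. MCM2 (AT1G44900, chr1:16970214-16974753, plus strand), a subunit of the replicative helicase, had 16.8 ± 1.32 CPM in acd15 acd21 sln, 24.8 ± 1.82 in sln and 20.9 ± 2.26 in wild-type. It was lower in acd15 acd21 sln than in wild-type (log2 -0.27 ± 0.09, adjusted p = 0.0442, edgeR), a call lost without acd15 acd21 sln replicate 1, 2, 4 or 5 or wild-type replicate 1, 2, 3 or 4, and lower than in sln (log2 -0.41 ± 0.08, adjusted p = 0.00166, edgeR).

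Another 4 members were called in 1 mutant each. RP1 (AT1G43170, chr1:16266553-16268945, plus strand), a cytosolic ribosomal protein, had 0.589, 0.753, 1.59, 1.59 and 2.84 CPM in sln, against 0.730, 0.873, 0.564, 0.332 and 0.860 CPM in wild-type (log2 1.03 ± 0.32, adjusted p = 0.0421, edgeR). The groups overlapped, the value was -0.31 in batch 1 alone and 1.66 in batch 2 alone, and the call was lost without sln replicate 3, 4 or 5 or wild-type replicate 3 or 4 (log2 0.69 without sln replicate 5). RP1 and AT1G43145 each held 10 counts in 3 of the 5 wild-type libraries. Summed leaf markers were 7.30 to 22.3 CPM in sln and 2.65 to 20.7 CPM in wild-type, and their part in this result was not tested. AT1G43145, an uncharacterised gene, was higher in sln at 1.42 ± 0.308 CPM, against 0.705 ± 0.165 CPM in wild-type (log2 0.89 ± 0.25, adjusted p = 0.0196, edgeR), a call lost without sln replicate 1 or wild-type replicate 2 or 5. AT1G35510, an O-fucosyltransferase family gene, was higher in mbd5 mbd6 at 2.51 ± 0.572 CPM, against 1.70 ± 0.277 CPM in wild-type (log2 0.54 ± 0.17, adjusted p = 0.0499, edgeR), a call lost without mbd5 mbd6 replicate 2, 3, 4 or 5 or wild-type replicate 3, 4 or 5. AT1G35612, annotated as a pseudogene of a Ulp1 protease family gene, was lower in acd15 acd21 at 4.76 ± 0.579 CPM, against 6.07 ± 0.615 CPM in wild-type (log2 -0.40 ± 0.12, adjusted p = 0.0469, edgeR), a call lost without acd15 acd21 replicate 3 or 4 or wild-type replicate 1, 2, 4 or 5.

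The 10 members with the highest CPM in wild-type differed little between genotypes. AT1G35490, a bZIP family transcription factor, held 2647 to 2879.6 CPM in mbd5 mbd6, 2632 to 2988 CPM in acd15 acd21 sln and 2661 to 2980.4 CPM in wild-type, and per kilobase of exon it was the strongest member, at 2026 CPM in wild-type. AT1G44160, an HSP40/DnaJ peptide-binding protein, was at 436 CPM per kilobase of exon in wild-type, and AT1G36050, a vesicle transporter of the endoplasmic reticulum, at 303. GF14 PHI (AT1G35160), a 14-3-3 adaptor protein, was at 108, EMB1075 (AT1G43710), a serine decarboxylase, at 105, and AT1G44000, a STAY-GREEN-like protein, at 104. FBP (AT1G43670), the cytosolic fructose-1,6-bisphosphatase of sucrose synthesis, was at 70.7, CSI2 (AT1G44120), which links cellulose synthase to microtubules, at 60.97, the DUF793 gene AT1G43630 at 53.4 and CDPK2 (AT1G35670), the calcium-dependent kinase CPK11, at 50.4. None of these 10 was called against wild-type, and 1 of them, EMB1075, was called over all 7 genotypes (adjusted p = 0.0271, edgeR) and in acd15 acd21 sln over sln (log2 0.12 ± 0.04, adjusted p = 0.0310, edgeR). The sign of that difference depends on the TMM scaling of the fit. In CPM, which leaves it out, the mean of EMB1075 was not higher in acd15 acd21 sln than in sln. TMM factors were 1.25 in sln replicate 5 and 0.877 in acd15 acd21 sln replicate 4. Against wild-type the log2 changes of the 10 members lay between -0.18 and 0.15. The highest genotype mean was 1.07 to 1.22 times the lowest. CSI2 lies opposite the antisense RNA gene AT1G44125, the noncoding member, EMB1075 overlaps AT1G43700 and AT1G44160 overlaps ALDH3H1, and reads of such partners cannot be told apart here.

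Genes of the region with a well known role were called at a share near that of other features. Of 24 such genes on a list drawn up for this region, 16 were members, 15 (93.8%) were called in none of the 6 comparisons with wild-type, beside 87.7% of all tested features, and 1, RP1, was called in sln. ANNAT1 (AT1G35720), an annexin, had 15.4 ± 1.69 CPM in mbd5 mbd6, 15.5 ± 1.54 in acd15 acd21 sln and 15.5 ± 1.44 in wild-type (SD, n = 5 each). NIA2 (AT1G37130), the main nitrate reductase, had 4.52 ± 0.447 CPM in mbd5 mbd6, 4.96 ± 0.293 in acd15 and 4.32 ± 0.448 in wild-type. Means of NIA2 in sln, acd21, acd15 acd21 and acd15 acd21 sln were below wild-type. Its median log2 change over the mutants was -0.18. RAB18 (AT1G43890), a small GTPase, had 13.1 ± 2.40 CPM in sln, 10.2 ± 1.45 in acd21 and 12.1 ± 1.89 in wild-type, and CYCA1;1 (AT1G44110), an A-type cyclin, 4.27 ± 0.782 CPM in acd15 acd21 and 3.95 ± 0.963 in wild-type. UGT80B1 (AT1G43620), a sterol glucosyltransferase, had 12.1 ± 1.56 CPM in sln and 9.86 ± 1.32 in wild-type. Others were near the count threshold. The acetyl-CoA carboxylase genes of fatty acid synthesis, ACC1 and ACC2, had 1.33 ± 0.132 and 0.820 ± 0.120 CPM in mbd5 mbd6, against 1.11 ± 0.191 and 0.473 ± 0.249 CPM in wild-type. GLR3.3 (AT1G42540), a glutamate receptor-like channel, had 0.693 ± 0.102 CPM in acd15 acd21 and 0.425 ± 0.180 in wild-type. SEU (AT1G43850), a transcriptional co-regulator of flower development, had 0.816 ± 0.433 CPM in acd15 and 0.561 ± 0.231 in wild-type, and PUP11 (AT1G44750), of the purine permease family, 0.871 ± 0.162 CPM in acd21 and 0.752 ± 0.302 in wild-type. ANNAT1, SEU and RAB18 overlap a gene on the other strand. AAP5 (AT1G44100), an amino acid permease, had 1.99 ± 0.461 CPM in acd15 acd21 sln and 2.67 ± 0.602 in wild-type, and ALDH3H1 (AT1G44170), an aldehyde dehydrogenase, had 1.55 ± 0.899 CPM in acd15 acd21 sln and 2.34 ± 0.462 in wild-type. ALDH3H1 was called lower in acd15 acd21 sln without acd15 acd21 sln replicate 1 (log2 -0.82, adjusted p = 0.0137, edgeR). It was also called lower in acd15 acd21 without acd15 acd21 replicate 5 (log2 -0.75, adjusted p = 0.0493, edgeR).

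In all, 51 of the 61 tested protein-coding members and 4 of the 15 tested pseudogene members were called in no mutant, which is 83.6% and 26.7%, beside 90.6% of all tested protein-coding features and 53.5% of all tested pseudogenes. Over the 51, the highest genotype mean was 1.06 to 2.29 times the lowest (median 1.22), and over the 4 pseudogenes 1.36 to 2.20 times. The 4 were AT1G35110, AT1G35450, AT1G35970 and AT1G42110. AT1G42110 (chr1:15725298-15727434, plus strand) was nevertheless called between acd15 acd21, at 9.96 ± 0.536 CPM, and mbd5 mbd6, at 7.32 ± 1.72 CPM (log2 0.40 ± 0.10, adjusted p = 0.0171, edgeR). Repeats of the sequence set the pseudogenes apart from the protein-coding members: 13 of the 16 pseudogenes, against 4 of the 62 protein-coding genes, had another locus with at least 200 bases at 90% identity or more; the match covered most of the span in 10 of the pseudogenes and 3 of the protein-coding genes. AT1G36360 was matched over 3.68% of its span, and AT1G35450, AT1G35612 and AT1G42385 had no such match. How reads with several matches were counted is not given in the sources used here, so levels of the copied members may include reads of their copies or lack reads shared with them.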

How the data were processed

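The deposited files hold raw counts per feature, 1 file per library, made by the authors from polyadenylated RNA of mature pollen. Per the submitters' processing notes, Trim Galore, STAR and HTSeq were used with TAIR10; neither the strand setting nor the treatment of reads with several matches is given in the sources used here. Rows naming no gene entered neither library sizes nor tests; the reads assigned to no feature made up 0.217% to 0.999% of all counts in a file, such rows included. Positions, classes and sequence came from RefSeq TAIR10.1, matched by locus identifier.

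Counts were fitted with edgeR 4.0.16 in R 4.3.3 (TMM, quasi-likelihood test, genotype and batch as terms, all 35 libraries), on features kept by filterByExpr with a minimum count of 10. Benjamini-Hochberg adjustment ran over all 12106 features, with calls under 0.05. CPM divides by the library's total of assigned counts and leaves out the TMM factors of the fit (0.877 to 1.253). Overlaps of libraries, given in CPM, and fitted changes are therefore on different scales. After a CPM mean, ± gives the SD of the libraries. After a log2 change it gives the standard error of the fit, the log2 change divided by the root of F. DESeq2 1.42.0, other filters and scalings, each batch alone, a replicate block and leaving out each library were the alternatives. Copies were sought with blastn (90% identity, 200 bases).

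Genes named were the 12 largest increases and 6 largest decreases called in each comparison with wild-type, the 10 most abundant in wild-type, the 4 largest called differences between each pair of mutants, genes with a known role, members silent in wild-type and those nearest the threshold. Members and lists were chosen with earlier results of these data known.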

Additional observations from a re-analysis of the deposited data

Results flagged for a closer look

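In 8 of 153 groups of 5 libraries, over 22 genes, 1 library stood far from the other 4; chance alone flags about 1 group in 20, or 7.65 here. AT1G35115 was at 67.4 CPM in acd15 replicate 4, and at 52.8 to 54.8 CPM in the other acd15 libraries. AT1G35510 was at 2.73 CPM in acd15 acd21 sln replicate 5, with the others at 1.52 to 1.83 CPM. AT1G35790 was at 30.3 CPM in sln replicate 5, with the others at 16.8 to 20.1 CPM. AT1G36090 was at 1.44 CPM in acd21 replicate 2, with the others at 0.647 to 0.800 CPM. AT1G42080 was at 1.05 CPM in acd15 acd21 replicate 1, with the others at 1.82 to 2.12 CPM. AT1G42190 was at 1.23 CPM in acd21 replicate 3, with the others at 0.682 to 0.784 CPM. AT1G43590 was at 7.30 CPM in wild-type replicate 1, with the others at 10.03 to 10.5 CPM. AT1G44050 was at 0.0759 CPM, 1 count, in sln replicate 3 and at 0 in the other sln libraries.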

How the results depend on the processing

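Of 264 log2 changes of named genes against wild-type, DESeq2 kept direction and call in 256, DESeq2 size factors in 261, a mean CPM filter of 0.5 in 262, no low-count filter in 259 and no batch term in 258. The change of AT1G43170 in sln turned to -0.31 in batch 1 alone; the cause was not tested. When a fit held no other genotypes than the pair compared, higher members numbered 7 in acd15 acd21 sln, 9 in acd15 acd21 and 7 in mbd5 mbd6, and calls were 4 between acd15 acd21 sln and sln (1.33% of all features) and 2 between acd15 and acd21 (0.370%). With no low-count filter, 2 were also called between acd15 and acd21 (0.145%). In batch 1 alone, with 2 libraries a group, higher members numbered 7 in mbd5 mbd6 and 6 in sln; lower members 2 in acd15 acd21 sln, 0 in acd15 acd21, 1 in acd15, 0 in acd21, 1 in sln and 0 in mbd5 mbd6; calls 2 between sln and mbd5 mbd6, 3 between acd15 acd21 and mbd5 mbd6, 2 between acd15 acd21 sln and acd15 acd21 and 3 between acd15 acd21 sln and sln, and 11 over all 7 genotypes. Of all features in batch 1, 1.67% (sln) to 2.32% (acd15) were higher, 0.176% (sln) to 0.853% (acd15 acd21 sln) lower, 0.468% to 0.494% called in each of these 4 pairs of mutants, and 3.07% over all genotypes. In batch 2 alone lower members numbered 1 in acd15 (beside 0.786% of all features) and 1 in acd15 acd21 (1.94%). There, 5 members were called between acd15 acd21 sln and sln (4.63%). Lower members of acd15 were also 1 under DESeq2, no low-count filter, the mean CPM filter and no batch term, and those of acd15 acd21 1 under the last 3. Of all features, 0.909%, 0.365%, 0.871% and 0.776% were lower in acd15 under these 4, in that order. In acd15 acd21 the shares under the last 3 were 0.530%, 1.08% and 0.793%.

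Leaving out each library in turn gave, for higher members, 11 to 13 in acd15 acd21 sln, 12 to 15 in acd15 acd21, 12 in acd15, 11 to 12 in acd21, 10 to 13 in sln and 11 to 12 in mbd5 mbd6. Among all features tested in these fits (12217 to 12337), 381 (acd21) to 573 (sln) were higher. Lower members were 3 to 5 in acd15 acd21 sln, 0 to 4 in acd15 acd21, 1 to 2 in acd15, 2 to 3 in acd21, 2 in sln and 2 in mbd5 mbd6. Among all features, 87 (sln) to 513 (acd15 acd21 sln) were lower. Calls were 7 to 10 between sln and mbd5 mbd6, 4 to 6 between acd15 acd21 and mbd5 mbd6, 1 between acd15 and acd21, 3 to 5 between acd15 acd21 sln and acd15 acd21, 5 to 9 between acd15 acd21 sln and sln, and 18 to 21 over all genotypes. In the same order, 199 to 499, 149 to 175, 22 to 32, 182 to 260, 198 to 941 and 1016 to 1410 of all features were called.

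Whether the replicate numbers pair the samples was not settled. The median correlation of 105 same-number pairs was 0.0747 (-0.397 to 0.442), with 47 over 0.1. Over 168 pairs of the same batch with other numbers it was 0.0522, with 64 over 0.1. With batch means removed, 28 of the 105 and 18 of the 168 were over 0.1. With the number as a replicate block, higher and lower members numbered 12 and 4 in acd15 acd21 sln, 15 and 3 in acd15 acd21, 13 and 2 in acd15, 12 and 2 in acd21, 13 and 2 in sln, and 11 and 2 in mbd5 mbd6, and 22 members were called over all genotypes; of all features, 3.52% (acd21) to 4.69% (sln) were then higher, 1.10% (acd15) to 2.45% (acd15 acd21 sln) lower, and 11.8% called over all genotypes. Counts near 10 per library limit what could be detected in the weakest members.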
